A study of Mus musculus with 6 samples.

Results

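The enzymes described here are 9 genes of cholesterol synthesis, Hmgcs1, Mvd, Idi1, Fdps, Fdft1, Sqle, Lss, Cyp51 and Dhcr7. They were chosen by gene name, and all 9 were among the 56941 genes of the count table. Cells build cholesterol from acetyl-CoA through mevalonate, the isoprenoid phosphates, squalene and lanosterol. The SREBP2 transcription factor, which is released when membrane sterol falls, is the main known activator of these genes, and excess sterol holds it back through INSIG proteins and also feeds export through LXR receptors. In skin, this pathway supplies growing keratinocytes, the sebaceous gland and the epidermal barrier.

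Total RNA was sequenced from hair follicle stem cells (HFSCs) that were sorted as CD34+/α6-integrin+ cells from female mice of the strain B6;129S4-Dab2tm1Cpr/J at postnatal day 68 (PD68), as 6 separate biological replicates, 3 in the group WT and 3 in the group Dab2-cKO. By the study's methods both groups carried Dab2 fl/fl and received tamoxifen at 75 mg/kg for 5 days, while the K14CreER transgene was present in Dab2-cKO mice and absent in WT mice. The K14 promoter is active in basal cells of the whole skin epithelium, so Cre activity was not limited to HFSCs. The comparison asks how the transcripts of these sorted samples differ between the genotypes at PD68. In bulk samples, fewer cells of a type and less RNA per cell cannot be told apart.

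Dab2, the targeted gene, was counted over its whole length. Its normalized count was 338.5, 332.2 and 309.3 in the WT libraries and 1434, 1300 and 1390 in the Dab2-cKO libraries. Dab2 was thus higher, not lower, in the libraries whose label names its knockout. A count over the whole gene does not show whether a floxed part was lost, and the reason for the higher count was not tested. Each direction below is therefore that of the libraries labelled Dab2-cKO against the libraries labelled WT. The totals lay between 7040032 and 11696457 counts. Mitochondrial genes took 13% to 14.5% of the counts in WT and 19.1% to 20.3% in Dab2-cKO. The summed level of 10 HFSC markers was 748 to 840 CPM (counts per 1000000 counts, TMM-scaled) in WT and 1199 to 1231 CPM in Dab2-cKO, with 6 called higher and 3 lower. Cd34 rose by 1.80, Krt15 by 0.84 and Itga6 by 0.55 on the log2 scale (edgeR, adjusted p = 9.12e-32, 3.87e-17 and 9.58e-10). The 3 lower markers, named after their values were seen, were Sox9, Lhx2 and Lgr5, with log2 fold changes of -1.45, -1.43 and -1.32. The summed level of 10 sebaceous gland markers was 389 to 445 CPM in WT and 1192 to 1232 CPM in Dab2-cKO, with 9 of the 10 called higher and Awat2, a wax ester synthase, higher by 1.72. That of 14 hair shaft, inner root sheath and matrix markers was 25010 to 30030 CPM in WT and 348 to 352 CPM in Dab2-cKO, with 14 of the 14 called lower and the inner root sheath keratin Krt71 at a log2 fold change of -6.94. That of 15 proliferation markers was 1233 to 1348 CPM in WT and 389 to 402 CPM in Dab2-cKO, with 15 of the 15 called lower and Mki67 at a log2 fold change of -2.12. In the same order of groups, the lists for differentiated epidermis (1752 to 2007 against 5449 to 5540 CPM), fibroblasts (10630 to 12880 against 37230 to 39340 CPM), immune cells (158 to 175 against 712 to 740 CPM), endothelium (100.2 to 114 against 371 to 381 CPM) and adipocytes (354 to 391 against 904 to 923 CPM) had larger sums in Dab2-cKO, with 6 of 9, 6 of 6, 5 of 6, 4 of 4 and 4 of 5 genes called higher and 2 of the epidermis list (Ivl and Casp14) and 1 of the adipocyte list (Lep) called lower, and that for melanocytes (331 to 358 against 112 to 116 CPM) had a smaller sum, with 5 of 5 called lower. No listed marker was at 0 in all libraries. Markers of other cell types were counted in both groups, so the levels below are those of whole libraries and are not specific to HFSCs. The part of these cell type markers and of the mitochondrial share in the results was not tested, for the 9 enzymes, the other pathway enzymes or the related gene lists.

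The 9 enzymes had summed levels that differed by less than the spread between libraries under TMM scaling, with means and SDs over 3 libraries of 633 ± 24.4 CPM for WT against 634 ± 2.39 CPM for Dab2-cKO, a ratio of 1.001. Within that sum the enzymes moved apart. Cyp51, Dhcr7 and Idi1 rose, a direction that turned with library size as the only scale, and Sqle and Lss fell, while Hmgcs1, Mvd, Fdps and Fdft1 did not pass the test (edgeR quasi-likelihood test, adjusted p under 0.05 over 32149 genes). Of all genes tested, 16.8% were called higher and 11.5% lower, 28.2% in all. Among the 7619 genes whose mean normalized count lay in the range of the 9 enzymes, 39.5% were called higher and 24.3% lower. The 3 higher and 2 lower of 9 are therefore near the background for genes of this abundance. The median log2 fold change was -0.0038 for the 9 enzymes and -0.02 for all genes tested, and the median absolute change was 0.24 for the 9 enzymes and 0.35 for all genes. The libraries of both groups did not overlap for 6 of the 9 enzymes, against 38.3% of all genes tested. That share was not taken for genes of this abundance, so no excess is read from it. The count of lower calls was 1 instead of 2 without WT replicate 3 or without Dab2-cKO replicate 3, since Lss then did not pass.

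**Figure D1:**
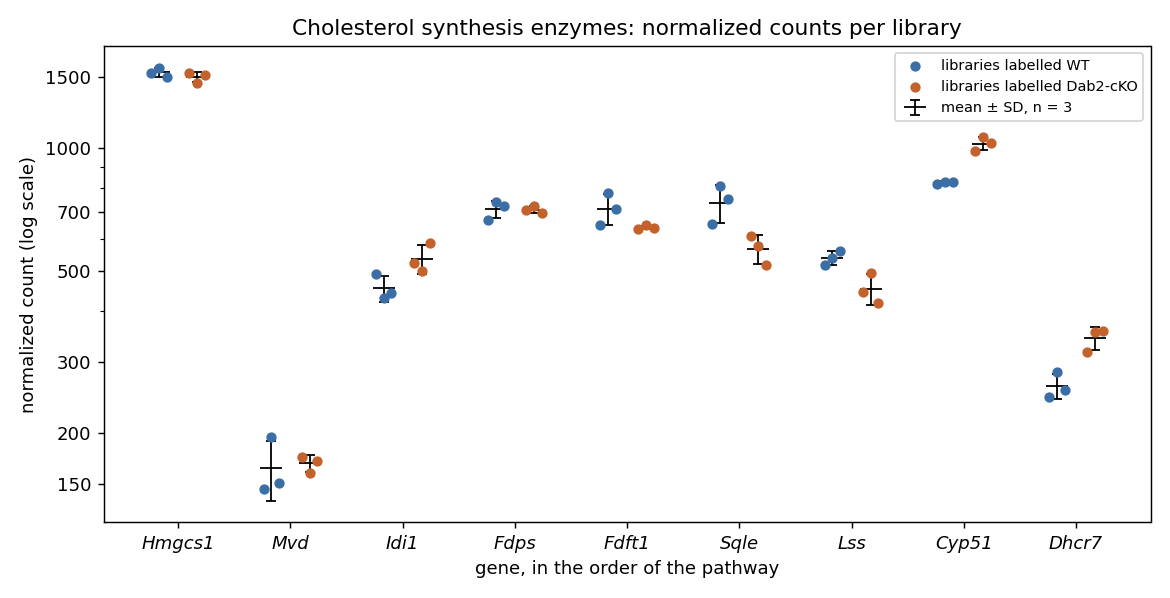
Normalized counts (y axis, log scale; counts divided by the effective library size) of the 9 enzymes in pathway order (x axis) in each of the 3 libraries labelled WT (blue) and the 3 labelled Dab2-cKO (orange), with mean and SD in black. Under this TMM scaling, but not with library size only for the first 3, Cyp51, Dhcr7 and Idi1 sit higher and Sqle and Lss lower in every Dab2-cKO library than in every WT library, while Hmgcs1 stays between 1449 and 1579 in all 6.

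The scale of the libraries bears on each of these directions. Normalized counts were scaled by TMM, an edgeR method that aligns the bulk of genes, and its factors were 1.107 to 1.211 in WT and 0.847 to 0.876 in Dab2-cKO. The 9 enzymes took 0.0722% to 0.0730% of all counts in WT and 0.0532% to 0.0554% in Dab2-cKO, so their share of the raw total was lower in Dab2-cKO. With library size as the only scale, the median of all genes moved to -0.45 on the log2 scale and that of the 9 enzymes to -0.43, and 0 of the 9 were called higher and 6 lower, against 8.35% and 34.7% of all genes tested. With upper-quartile scaling the median of all genes was -0.17, and 1 of the 9 was called higher and 4 lower, against 13.3% and 17.3%. Relative to the median of all genes under library size only, Cyp51 at -0.11, Dhcr7 at -0.04 and Idi1 at -0.19 lay above it and Sqle at -0.80 and Lss at -0.68 below it.

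**Figure D2:**
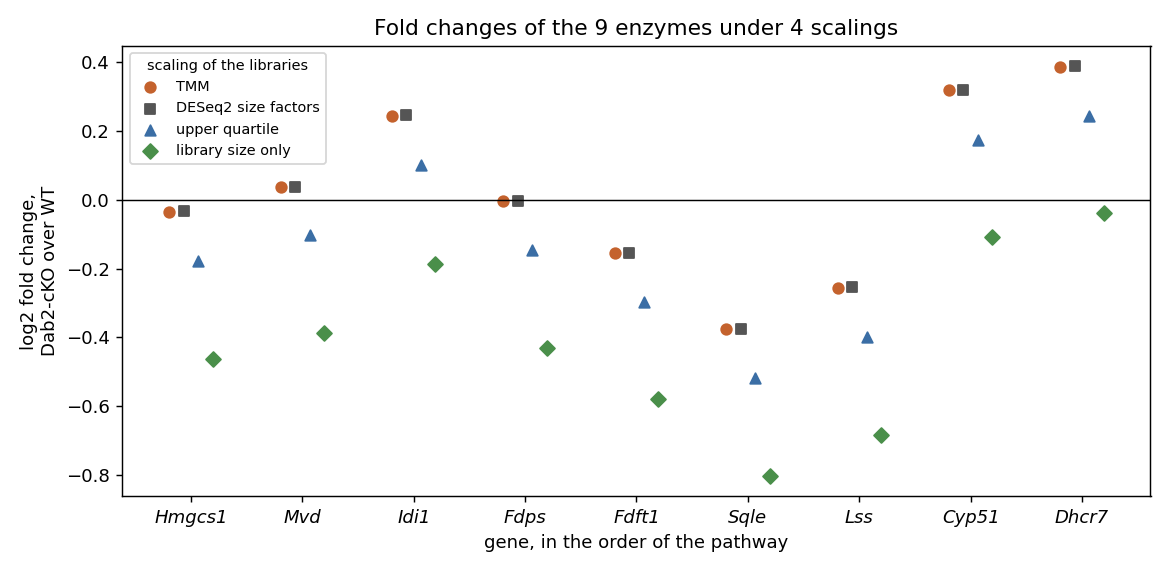
Fold changes on the log2 scale (y axis, Dab2-cKO relative to WT) for each of the 9 enzymes (x axis) under TMM (circles), DESeq2 size factors (squares), upper-quartile scaling (triangles) and library size only (diamonds). The symbols of each scaling keep nearly the same spacing between genes, with the library-size values lowest for every enzyme and below 0 for all 9.

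The share of each enzyme in the summed counts of all 9 does not depend on the scale of a library. Cyp51 took 13.4% to 14.3% of that sum in WT and 16.6% to 17.9% in Dab2-cKO, a gain of 3.40 percentage points between the means. Dhcr7 went from 4.30% to 4.57% in WT to 5.34% to 6.01% in Dab2-cKO. Sqle went the other way, from 11.4% to 13.1% in WT to 8.73% to 10.3% in Dab2-cKO. The shares of Lss (8.73% to 9.48% in WT, 7.03% to 8.29% in Dab2-cKO) and Fdft1 (11.4% to 12.6% in WT, 10.7% to 10.8% in Dab2-cKO) were lower in every Dab2-cKO library as well. For these 5 enzymes the groups did not overlap and the two-sided exact permutation p was 0.1, the smallest that 3 against 3 libraries allow. The shares of Idi1 (exact permutation p = 0.2), Hmgcs1, Mvd and Fdps overlapped between the groups. The shares sum to a constant, so a gain of some enzymes is a loss of others.

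**Figure D3:**
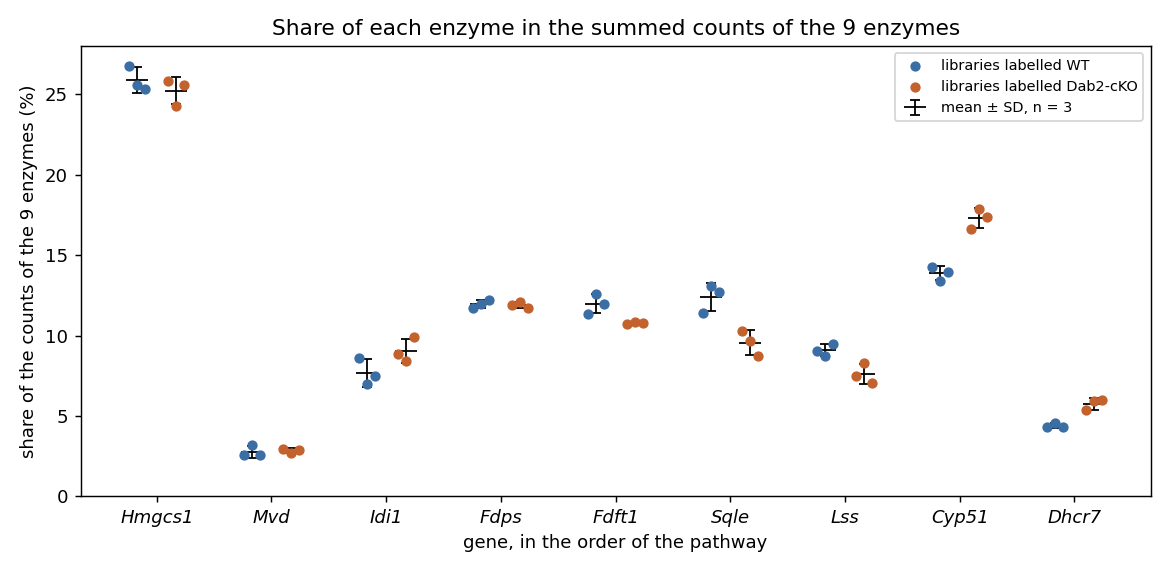
The share of each enzyme in the summed counts of the 9 enzymes (y axis, %) in each library, blue for WT and orange for Dab2-cKO, with mean and SD (n = 3) in black. Cyp51 and Dhcr7 gain and Fdft1, Sqle and Lss lose share in all 3 Dab2-cKO libraries, while Hmgcs1 holds 24.3% to 26.8% of the sum throughout.

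Levels of different genes were compared as normalized counts per kb of exon over all 6 libraries. Hmgcs1 was the most abundant of the 9 with 288 normalized counts per kb, and its lowest library (275) lay above every library of the next gene. Cyp51 (156), Fdps (145), Fdft1 (142) and Idi1 (139.7 normalized counts per kb) followed, and neighbours in this order overlapped. Sqle (73.4) and Mvd (61.0) came next and overlapped with each other but not with Idi1. Lss (43.6) and Dhcr7 (36.9 normalized counts per kb) were the lowest and overlapped with each other. The order of the means within the middle and the last group of genes differed between the genotypes, though the libraries of Fdft1 and Fdps overlapped in WT. In WT the means per kb were 149 for Fdft1, 145 for Fdps, 138.8 for Cyp51 and 128 for Idi1, and in Dab2-cKO they were 173 for Cyp51, 151 for Idi1, 144.8 for Fdps and 134 for Fdft1. Lss was above Dhcr7 in WT (47.4 and 31.9 per kb), while in Dab2-cKO the means were 39.8 and 41.8 per kb and the libraries overlapped. There Lss had 39.12, 43.56 and 36.73 per kb and Dhcr7 38.65, 43.26 and 43.52, with Lss the higher in replicates 1 and 2. When the length of the longest transcript was used instead, 5 of the 9 kept their rank, and Fdps passed Cyp51 while Dhcr7 passed Lss and Mvd. Receptor genes for odours, pheromones and trace amines, most of which skin is not known to use, had a median of 4.94 normalized counts per kb over 1526 genes. A background of that density over the exons would make up 1.71% of the count of Hmgcs1, 8.10% of Mvd, 11.3% of Lss and 13.4% of Dhcr7.

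**Figure D4:**
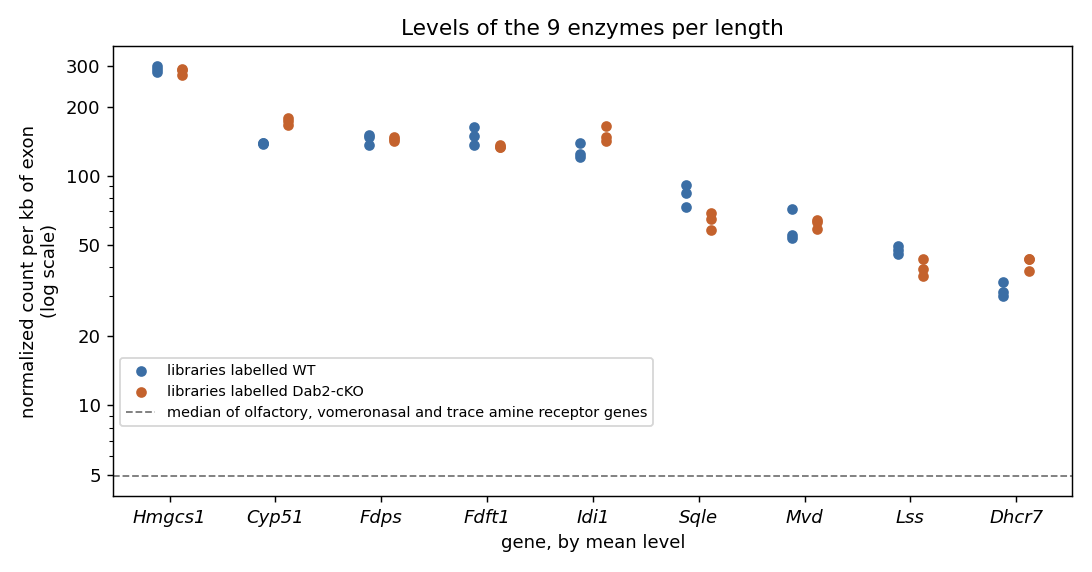
Normalized counts per kb of exon (y axis, log scale) of the 9 enzymes (x axis, by mean level), with 1 point per library, blue for WT and orange for Dab2-cKO. The dashed line is the median of the receptor genes for odours, pheromones and trace amines at 4.94 per kb, and every point of the 9 enzymes lies above it.

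Hmgcs1 makes HMG-CoA from acetoacetyl-CoA, an early step of the mevalonate pathway (ENSMUSG00000093930, GRCm39 chr13:120151915-120170470, plus strand). It had 1533, 1579 and 1500 normalized counts in the WT libraries and 1532, 1449 and 1518 in the Dab2-cKO libraries. The groups overlapped throughout, and the log2 fold change of -0.04 had a 95% interval from -0.17 to 0.10 (edgeR, adjusted p = 0.785). Under upper-quartile scaling, Hmgcs1 was called lower at -0.18 (adjusted p = 0.0106). Exons of Nim1k and a non-coding gene on the opposite strand covered 12% of its exons. Nim1k had a mean of 171 normalized counts in WT and 91.5 in Dab2-cKO (log2 fold change -0.90; edgeR, adjusted p = 2.41e-06).

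Mvd decarboxylates mevalonate diphosphate to isopentenyl diphosphate, the isoprenoid building block (ENSMUSG00000006517, GRCm39 chr8:123160336-123170324, minus strand). It was the least counted of the 9, with 145.9, 195.9 and 151.2 normalized counts in WT and 175.5, 159.9 and 171.1 in Dab2-cKO. WT replicate 2 was the highest of all 6 and the other WT libraries were the lowest. Its log2 fold change was 0.04 (95% interval -0.24 to 0.31; edgeR, adjusted p = 0.893), and the sign turned under upper-quartile scaling (-0.10) and library size only (-0.39). A gene on the opposite strand covered 20.5% of its exons, and the part of this overlap in the count of Mvd was not tested.

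Idi1 converts isopentenyl diphosphate to its reactive isomer (ENSMUSG00000058258, GRCm39 chr13:8935537-8942487, plus strand). It had 492.1, 429.7 and 440.9 normalized counts in WT and 523.5, 501.7 and 586.1 in Dab2-cKO. Every Dab2-cKO library was higher than every WT library, but WT replicate 1 and Dab2-cKO replicate 2 were close. Idi1 rose by 0.24 on the log2 scale (SE 0.09; edgeR, adjusted p = 0.0298), and the value was -0.19 with library size as the only scale. The call was lost under 10 of the 14 alternatives, among them DESeq2 (adjusted p = 0.0709) and the fits without WT replicate 2 (0.0842), WT replicate 3 (0.115), Dab2-cKO replicate 1 (0.0583) and Dab2-cKO replicate 3 (0.282). Near-identical copies covered 82.0% of its longest transcript, at the pseudogenes Idi1-ps1 and Idi1-ps2, which held 123 counts over all libraries against 2950 on Idi1, so its count is uncertain.

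Fdps joins isoprenoid units into farnesyl diphosphate, the branch point towards sterols, ubiquinone, dolichol and prenylated proteins (ENSMUSG00000059743, GRCm39 chr3:89000888-89019213, minus strand). It had 669.2, 737.6 and 721.1 normalized counts in WT and 707.6, 721.4 and 695.3 in Dab2-cKO. All 3 Dab2-cKO libraries lay inside the WT range. With a log2 fold change of -0.0038 (95% interval -0.16 to 0.15), Fdps did not pass the test (edgeR, adjusted p = 0.983). Pseudogenes near-identical to a stretch of its transcript held 612 counts against 4261 on Fdps.

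Fdft1, squalene synthase, joins farnesyl units into squalene and so commits them to sterols (ENSMUSG00000021273, GRCm39 chr14:63382189-63417027, minus strand). It had 650.2, 776.4 and 709.2 normalized counts in WT and 636.1, 647.8 and 637.9 in Dab2-cKO. The groups did not overlap, though WT replicate 1 and Dab2-cKO replicate 2 were nearly equal. The log2 fold change of -0.15 (SE 0.08, 95% interval -0.31 to 0.0043) did not pass the test (edgeR, adjusted p = 0.157). Fdft1 was called lower without WT replicate 1 (-0.21, adjusted p = 0.0433) and under upper-quartile scaling (-0.30, adjusted p = 0.000334). On the opposite strand, exons of Ctsb, with 2788 normalized counts in WT and 3105 in Dab2-cKO (log2 fold change 0.16, adjusted p = 0.0964), covered 24.8% of the exons of Fdft1. A copy at Gm6781 covered 40.6% of its longest transcript.

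Sqle, squalene epoxidase, adds the first oxygen of the sterol branch and is a rate-limiting enzyme of the pathway (ENSMUSG00000022351, GRCm39 chr15:59186869-59203043, plus strand). It had 651.4, 808 and 750.2 normalized counts in WT and 609.4, 576.5 and 517.6 in Dab2-cKO. Every Dab2-cKO library was lower than every WT library. The change was the largest fall of the 9, with a log2 fold change of -0.38 (SE 0.08; edgeR, adjusted p = 0.000156), or 1.30-fold lower. It passed the test under every alternative except the test against a 1.5-fold change (adjusted p = 1). Exons of Washc5, with 442 normalized counts in WT and 456 in Dab2-cKO, covered 5.29% of its exons on the opposite strand, and part of its longest transcript matched repeats across the genome.

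Lss closes oxidosqualene into lanosterol, the first sterol (ENSMUSG00000033105, GRCm39 chr10:76367298-76392976, plus strand). It had 516.6, 539 and 560.5 normalized counts in WT and 444.4, 494.8 and 417.2 in Dab2-cKO. The groups did not overlap, and Dab2-cKO replicate 2 was the nearest to WT. Lss was lower with a log2 fold change of -0.26 (SE 0.09; edgeR, adjusted p = 0.0211). The call was lost with DESeq2 (adjusted p = 0.0603), without WT replicate 3 (0.141) and without Dab2-cKO replicate 3 (0.0828).

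Cyp51, lanosterol 14-alpha-demethylase, starts the conversion of lanosterol to cholesterol (ENSMUSG00000001467, GRCm39 chr5:4123416-4154751, minus strand). It had 816.1, 828.8 and 827.1 normalized counts in WT and 987, 1065 and 1032 in Dab2-cKO. The WT libraries lay close together and all 3 Dab2-cKO libraries were above them. Cyp51 rose by 0.32 on the log2 scale (SE 0.07; edgeR, adjusted p = 0.000317), or 1.25-fold higher, and turned to -0.11 (adjusted p = 0.155) with library size as the only scale. Exons on the opposite strand, of Akap9 and non-coding genes, covered 28.3% of the exons of Cyp51. Akap9, which like the other overlapping genes was named after its values were seen, had 2870 normalized counts in WT and 2530 in Dab2-cKO (log2 fold change -0.18), and the part of such overlaps in the counts of the enzymes was not tested.

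Dhcr7 reduces 7-dehydrocholesterol, which is also the skin's precursor of vitamin D, to cholesterol (ENSMUSG00000058454, GRCm39 chr7:143376740-143402149, plus strand). It had 246.1, 282.6 and 255.5 normalized counts in WT and 316.6, 354.4 and 356.5 in Dab2-cKO. The groups did not overlap. Its log2 fold change of 0.39 was the largest rise of the 9 (SE 0.11; edgeR, adjusted p = 0.00272), or 1.31-fold higher. The value was 0.24 under upper-quartile scaling (adjusted p = 0.0585) and turned to -0.04 with library size as the only scale. No exon of another gene overlapped its exons, but part of its longest transcript matched repeats across the genome.

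The promoters are shown because these genes are known to share a control by SREBP2 with the CCAAT-binding factor NF-Y and Sp1. The letters come from RefSeq on the GRCm38.p6 build, from 250 bases before to 50 bases after the start, and 6 of the 9 enzymes matched an entry (not Fdps, Fdft1 and Sqle). Both strands were searched for the sterol regulatory element TCACNCCAC, the palindromic E-box TCACGTGA, the CCAAT box CCAAT and the Sp1 box GGGCGG. Below are Hmgcs1, which was not called, Lss, which fell, and Cyp51 and Dhcr7, which rose under TMM but turned sign with library size only. Capitals mark matches to the sterol regulatory element and to CCAAT, written ATTGG where it lies on the other strand, and these matches do not overlap each other.
Hmgcs1: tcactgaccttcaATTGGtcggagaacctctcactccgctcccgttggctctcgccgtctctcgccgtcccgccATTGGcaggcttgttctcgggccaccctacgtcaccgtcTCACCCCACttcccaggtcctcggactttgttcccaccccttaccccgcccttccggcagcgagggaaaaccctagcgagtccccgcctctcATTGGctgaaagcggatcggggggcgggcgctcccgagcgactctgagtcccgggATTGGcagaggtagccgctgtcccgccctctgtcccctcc
Lss: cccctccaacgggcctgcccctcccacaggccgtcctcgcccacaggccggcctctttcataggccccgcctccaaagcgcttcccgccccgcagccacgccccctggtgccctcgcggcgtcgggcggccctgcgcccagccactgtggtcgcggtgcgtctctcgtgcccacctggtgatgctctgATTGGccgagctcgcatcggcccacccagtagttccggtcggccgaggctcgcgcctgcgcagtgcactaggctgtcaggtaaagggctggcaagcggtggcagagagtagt
Cyp51: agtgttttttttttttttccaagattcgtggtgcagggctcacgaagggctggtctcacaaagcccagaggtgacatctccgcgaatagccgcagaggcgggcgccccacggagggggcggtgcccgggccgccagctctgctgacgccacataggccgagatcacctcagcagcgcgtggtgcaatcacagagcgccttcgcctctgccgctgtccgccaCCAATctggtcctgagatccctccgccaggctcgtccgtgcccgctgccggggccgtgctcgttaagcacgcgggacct
Dhcr7: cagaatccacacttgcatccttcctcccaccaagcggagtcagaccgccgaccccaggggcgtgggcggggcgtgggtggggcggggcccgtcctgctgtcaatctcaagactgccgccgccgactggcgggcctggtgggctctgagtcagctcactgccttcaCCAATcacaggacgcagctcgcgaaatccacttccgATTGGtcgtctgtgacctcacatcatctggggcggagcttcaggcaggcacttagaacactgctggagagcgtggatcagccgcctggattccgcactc
The windows are chr13:119690101-119690400 (plus strand) for Hmgcs1, chr10:76531355-76531654 (plus) for Lss, chr5:4104648-4104947 (minus) for Cyp51 and chr7:143829964-143830263 (plus) for Dhcr7, whose entry 3 of 3 is printed because the other entries hold no CCAAT box.

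Hmgcs1 was the only enzyme of the 6 with a match to TCACNCCAC, the pattern searched for the sterol regulatory element. Other spellings of the element were not searched, so its absence from the other enzymes is not shown. The match in Hmgcs1, TCACCCCAC, begins at position -137 from the start. Of all 32851 promoters, 1.24% held a match to that element, and 0.551% held this exact spelling. A CCAAT box was present in at least 1 entry of 6 of 6 enzymes, with 4 in Hmgcs1, 2 each in Mvd, Idi1 and Dhcr7 and 1 each in Lss and Cyp51, against 37.4% of all promoters. The Sp1 box was also present in 6 of 6, against 35.7% of all promoters, and the E-box in 0 of 6, against 0.974%. An enzyme with several entries was counted once, while the shares over all promoters count each entry. Of the 11 other pathway enzymes with an entry, 10 held a CCAAT box and 9 an Sp1 box. Lss was the only called-lower enzyme among the 6, and a link between these letters and the directions was not tested.

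The other enzymes of the mevalonate and sterol pathway had a larger median absolute change (0.49 on the log2 scale) than the 9 (0.24), a difference that was not tested. Of 13, 8 were called higher, 2 lower and 3 did not pass, with a median log2 fold change of 0.41 against -0.02 for all genes. Of all genes tested, 16.8% were called higher and 11.5% lower, and of those in the abundance range of the 9 enzymes 39.5% and 24.3%. Not all of the 13 lay in that range, and Tm7sf2, for example, lay below it. Acat2, Pmvk, Tm7sf2, Msmo1, Hsd17b7 and Ebp were among those called higher, and of these the sign of Acat2 turned with library size only (-0.0142). Lbr, which is both a nuclear envelope protein and a sterol reductase, had the largest fall of this list (874 ± 88.6 to 385 ± 12.7 normalized counts; log2 fold change -1.18, adjusted p = 4.33e-20), and Sc5d, the desaturase before Dhcr7, was lower by 0.89 (log2 fold change -0.89). Mvk (-0.30), Ggps1 (-0.06) and Nsdhl (0.31) did not pass the test. Without WT replicate 3 the count of higher calls was 4 instead of 8, and with library size as the only scale 2 were called higher and 5 lower.

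The calls were also counted by stage of the pathway over 19 enzymes, a grouping made after their values were seen, and differences between stages were not tested. Of the 8 enzymes that lead to squalene, 3 were called higher and 0 lower by edgeR (1 lower at an unadjusted p under 0.05, and 0 lower by DESeq2), and their summed level was 451 ± 20.5 CPM for WT against 459 ± 5.61 CPM for Dab2-cKO (SD over 3 libraries). Both enzymes between squalene and lanosterol, Sqle and Lss, were called lower, and their sum went from 136 ± 10.1 to 109 ± 7.92 CPM. Of the 9 enzymes from lanosterol to cholesterol, 6 were called higher, 2 lower and 1 not, and their sum went from 422 ± 21.4 to 486 ± 5.71 CPM, 1.15 times the WT level. With library size as the only scale, these counts were 0 higher and 5 lower up to squalene, 0 and 2 up to lanosterol, and 1 and 2 after it. Under upper-quartile scaling they were 1 and 3, 0 and 2, and 3 and 2. Up to squalene, 1 was called higher without WT replicate 3 or Dab2-cKO replicate 3, 2 without WT replicate 2 or Dab2-cKO replicate 1, and the lower calls were 2 without WT replicate 1 and 1 without Dab2-cKO replicate 2. Between squalene and lanosterol 1 was called lower without WT replicate 3 or Dab2-cKO replicate 3. After lanosterol, 4 to 7 were called higher with 1 library left out, with 4 without WT replicate 3 or Dab2-cKO replicate 2.

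**Figure D5:**
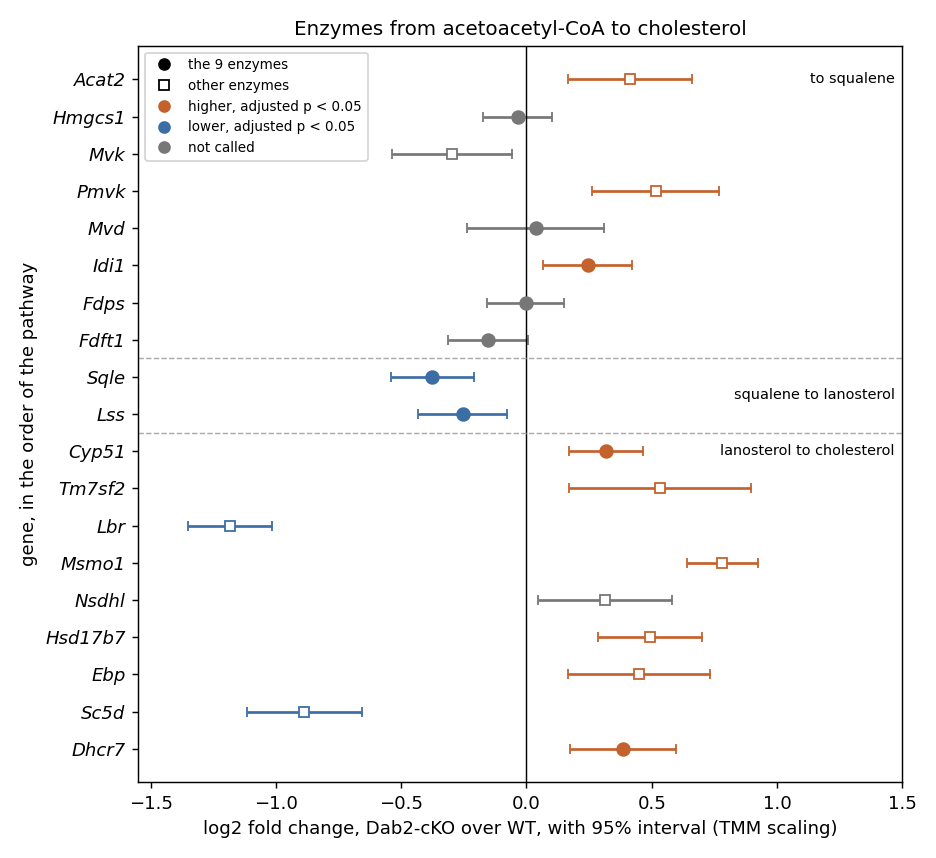
Fold changes on the log2 scale (x axis, Dab2-cKO relative to WT, TMM scaling) with its 95% interval for 19 enzymes in pathway order (y axis), filled circles for the 9 enzymes and open squares for the others, orange for called higher, blue for called lower and grey for not called. Sqle and Lss lie left of 0 between the dashed lines, while Cyp51, Dhcr7 and 4 other called enzymes below them lie right of 0 (with library size only, Cyp51 and Dhcr7 turned sign), with Lbr and Sc5d far to the left.

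Around the pathway, genes for control by SREBP and for cholesterol uptake moved both ways. Of 13, 4 were called higher and 5 lower, with a median log2 fold change of -0.11, against 16.8% higher and 11.5% lower over all genes tested and 39.5% and 24.3% in the abundance range of the 9 enzymes. Srebf2, which encodes SREBP2, fell from 1094, 1398 and 1329 to 862.1, 875.6 and 903.9 normalized counts (log2 fold change -0.54; edgeR, adjusted p = 1.77e-08). Insig1, an SREBP2 target that retains the factor in the endoplasmic reticulum, fell from 491, 529.9 and 518.6 to 291.8, 349.8 and 312.3 (-0.69, adjusted p = 4.96e-09). For both genes every Dab2-cKO library was below every WT library. Srebf1, the SREBP gene tied to fatty acid synthesis, rose by 0.66 (adjusted p = 4.26e-10), and Npc2, which carries cholesterol within lysosomes, had the largest rise at 1.24 (adjusted p = 7.06e-20).

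Of 10 genes for the LXR receptors, their targets and cholesterol export or storage, 7 were called higher and 0 lower, with a median log2 fold change of 0.61, against the same 16.8% and 11.5% of all genes tested (39.5% and 24.3% in the abundance range of the 9 enzymes). The count of lower calls was 0 in edgeR, also at an unadjusted p under 0.05, and 0 under every alternative, DESeq2 included. Abca1, the main exporter of cholesterol, rose from 1631 ± 41.0 in WT to 2594 ± 36.6 normalized counts (SD over 3 libraries each; log2 fold change 0.67; edgeR, adjusted p = 4.21e-13). Cyp27a1, which makes an oxysterol, had the largest called rise of this list (1.11, adjusted p = 4.67e-08). Immune and sebaceous marker sums were also larger in Dab2-cKO, and their part in the rises of this list was not tested. Of 10 genes of the isoprenoid branches, which draw on the products of Idi1 and Fdps, 3 were called higher and 2 lower (median 0.20), which is below or near the 39.5% and 24.3% of genes in that abundance range. Pdss1, for the side chain of ubiquinone, had the largest rise (0.78) and the farnesyltransferase subunit Fntb the largest fall (-0.43). Of 11 genes of fatty acid synthesis, 7 were called higher and 4 lower (median 0.38), against 16.8% and 11.5% of all genes tested and 39.5% and 24.3% in that abundance range. That range, a mean normalized count of 167 to 1518, is set by the 9 enzymes and is not matched to the related lists. Scd1 and Abca1, for example, lay above it and Nr1h3, an LXR gene, below it. Scd1, a stearoyl-CoA desaturase of the sebaceous gland, rose from 6449 ± 458 to 20210 ± 550.3 normalized counts (1.65, adjusted p = 2.60e-32), and Fads2 had the largest fall (-1.87). Fasn, fatty acid synthase, was higher by 0.27 (adjusted p = 0.00133) and turned to -0.15 with library size as the only scale.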

How the data were processed

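The authors trimmed the reads with fastp 0.23.4, aligned them to GRCm39 with HISAT2 2.2.1 and counted them per gene with featureCounts 2.0.6. The deposited table holds these counts per gene and library without normalization. A further deposited table holds the authors' own comparison by DESeq2 (normalized values, fold changes and p-values) and was not used. Columns named FL-FL were taken as Dab2-cKO from the series title, which equates the names, although both genotypes carry floxed alleles. Whether the counting used strand is not given in the sources used here, so reads of a gene and of an overlapping gene on the other strand cannot be told apart.

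In R 4.3.3, genes were filtered with the default expression filter of edgeR 4.0.16 (32149 of 56941 kept, with all 9 enzymes among them), scaled by TMM, and compared over all genes by its quasi-likelihood test (robust fit, no covariate) with Benjamini-Hochberg adjustment and a threshold of 0.05. For normalized counts, each library was brought to the average TMM-adjusted library size. The 95% intervals come from the same fit. DESeq2 1.42.0, other scalings, filters, a replicate block, a test against a 1.5-fold change and leaving out each library served as alternatives. The self-test on simulated data with known fold changes ran before the fit. Exon lengths, overlaps and near-identical copies (at least 95% identity over 100 bp) were taken from GENCODE and the GRCm39 genome. The depth of 7040032 to 11696457 counts gave 1003 to 9122 counts per enzyme over the 6 libraries. The p-values rest on 3 biological replicates per group, with the spread of each gene drawn towards a trend over all genes.

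The enzymes and lists were chosen with earlier results of these data known. The genes named were all 9 enzymes, the other pathway enzymes by direction with values for the largest called change, the largest called rise and fall of each related list with Srebf2, Srebf1, Insig1, Abca1, Fasn and Scd1, the markers Cd34, Itga6, Krt15, Mki67, Awat2 and Krt71, and Dab2. Some genes that this rule names are not reported here.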

Additional observations from a re-analysis of the deposited data

How the results depend on the processing

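Sqle passed in every fit but the test against a 1.5-fold change, Cyp51 also failed with library size only, and Dhcr7 in both and under upper-quartile scaling. Against a 1.5-fold change, 0 of the 9 enzymes were called higher and 0 lower, also at an unadjusted p under 0.05 (Idi1 0.24, Sqle -0.38, Lss -0.26, Cyp51 0.32, Dhcr7 0.39). DESeq2 called 1 lower (Idi1 0.25 and Lss -0.25 were lost). Under upper-quartile scaling 1 was higher and 4 lower (median -0.15; Hmgcs1 -0.18, Mvd -0.10, Idi1 0.10, Fdft1 -0.30, Dhcr7 0.24). With library size only 0 were higher and 6 lower (median -0.43; Hmgcs1 -0.46, Mvd -0.39, Idi1 -0.19, Fdps -0.43, Fdft1 -0.58, Cyp51 -0.11, Dhcr7 -0.0394, Fasn -0.15). Idi1 was 0.21 without a low-count filter and 0.16 under a minimum mean count of 50, where Mvd was -0.0471, Fdft1 -0.24 and the median -0.0898. The cause of these shifts was not tested beyond the scale itself. By longest transcript 5 of 9 kept their rank.

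Leaving out 1 library at a time, the 9 enzymes gave 2 to 3 higher and 1 to 3 lower calls, with Mvd from -0.0311 to 0.19 (-0.0311, -0.0174 and -0.0088 without WT replicate 1, WT replicate 3 and Dab2-cKO replicate 1), Idi1 0.16 to 0.31, Fdps -0.0431 to 0.034 (0.034 and 0.0155 without WT replicates 2 and 3), Fdft1 -0.21 to -0.0785 and Lss -0.35 to -0.22. Higher calls of the other pathway enzymes ranged from 4 to 8 and lower calls of the isoprenoid branches from 0 to 2.

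Of the related lists, upper-quartile scaling gave 4 higher calls for the other enzymes and 8 lower for SREBP control. Library size only gave 2 higher and 5 lower for the other enzymes, 9 lower for SREBP control, 4 higher for LXR and export, 0 higher and 5 lower for the isoprenoid branches and 4 higher for fatty acid synthesis. Against a 1.5-fold change the counts were 2 higher for the other enzymes, 2 higher and 0 lower for SREBP control, 3 higher for LXR and export, 0 and 0 for the isoprenoid branches (1 and 0 at an unadjusted p under 0.05) and 4 higher and 2 lower for fatty acid synthesis. DESeq2 gave 0 lower for the isoprenoid branches.

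Same-numbered libraries did not deviate together (correlations 0.071, -0.02 and 0.058), so the numbers were not taken as pairs. The fit with a replicate block changed no call of the 9 enzymes (3 higher, 2 lower) and gave 1 lower call for the isoprenoid branches.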
